A study of Saccharomyces cerevisiae with 2 samples.

Results

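Aminoacyl-tRNA synthetases are the enzymes that join each amino acid to its tRNA, and 35 of their genes were followed here in budding yeast, Saccharomyces cerevisiae, after salt was added. The genes were chosen by name, from the known synthetase genes, as 35 of the 6868 features on the arrays. Of these, 21 encode cytosolic or dual enzymes and 14 encode mitochondrial ones. All 35 were measured on both arrays and none is listed at exactly 0. The study asked how yeast adapts to salt. The strain was BY4742, a haploid alpha-type laboratory strain, given as wild type with the tag his3kan in stressed and unstressed cells alike. Cultures grew in batch with shaking at 30 °C in synthetic complete medium, and pre-warmed salt brought them to 0.7 M NaCl. One array compared cells 30 min after salt with unstressed cells, and the other compared cells 60 min after salt with unstressed cells. Both were 2-colour NimbleGen tiling arrays, with stressed cDNA in the Oyster 550 channel and unstressed cDNA in the Oyster 650 channel. The unstressed RNA is named differently on the 2 arrays, and a shared source is not stated.

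There was 1 array per time, so no value below has an error between cultures and no difference was tested. A dye effect or the time spent in culture cannot be told apart from salt. Each value is a ratio within 1 array and says nothing of how abundant a transcript is, so the strain could not be checked against marker transcripts either. The values were read as log2 ratios, where 1 stands for 2-fold, although the base is not stated. Their direction was taken as likely stressed over unstressed, because 5 well-known salt-induced genes (STL1, GPD1, GPP2, CTT1 and HSP12) lay between 3.44 and 8.32 at 30 min and between 1.29 and 6.29 at 60 min. Higher and lower would swap throughout under the opposite direction. The median over all features was 0 on each array, so a value places a transcript against the rest of the array, and a shift in total mRNA per cell would not be seen. The SD over features was 1.33 at 30 min and 0.71 at 60 min, and this gap in scale bears on each comparison of the times.

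A synthetase recognises 1 amino acid and its tRNAs, activates the amino acid with ATP and loads it onto the tRNA end. The charged tRNA is then carried to the ribosome by an elongation factor. Synthetases fall into class I and class II, which have unrelated catalytic folds. Mitochondria translate their own small genome, and in yeast most mitochondrial synthetases are encoded by separate nuclear genes and imported. For some amino acids a single gene supplies both compartments, as ALA1, GRS1, HTS1 and VAS1 do through forms that start at different sites.

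The 2 sets of synthetases lay on opposite sides of 0 at 30 min, apart from MSW1. All 21 cytosolic members had negative values, with a median of -1.42 (2.68-fold lower, interquartile range over genes -1.48 to -0.97). Of the 14 mitochondrial members 13 had positive values, with a median of 0.42 (1.34-fold higher, interquartile range 0.30 to 0.68). At least 2-fold lower were 14 of 21 cytosolic members, against 17.3% of all features. No mitochondrial member was 2-fold lower, and none of the 35 members was 2-fold higher, against 15.8% of all features. The cytosolic member nearest to 0 was DPS1 with -0.43 and the lowest mitochondrial member was MSW1 with -0.21, so the values of the sets did not overlap.

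At 60 min both sets lay closer to 0. All 21 cytosolic members were still negative, with a median of -0.54 (1.46-fold lower, interquartile range -0.65 to -0.47). The mitochondrial median was 0.09, with 9 members positive and 5 negative. None of the 35 members was at least 2-fold lower, against 4.32% of all features, and none was 2-fold higher, against 6.67%. The sets did not overlap on this array either: the cytosolic value nearest to 0 was -0.27 for SES1 and the lowest mitochondrial value was -0.20 for DIA4. With the 60 min array rescaled to the SD of the 30 min array, 11 of 21 cytosolic members were at least 2-fold lower. Over all features this share was then 15.9%. The cytosolic median on that scale was -1.02.

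**Figure D1:**
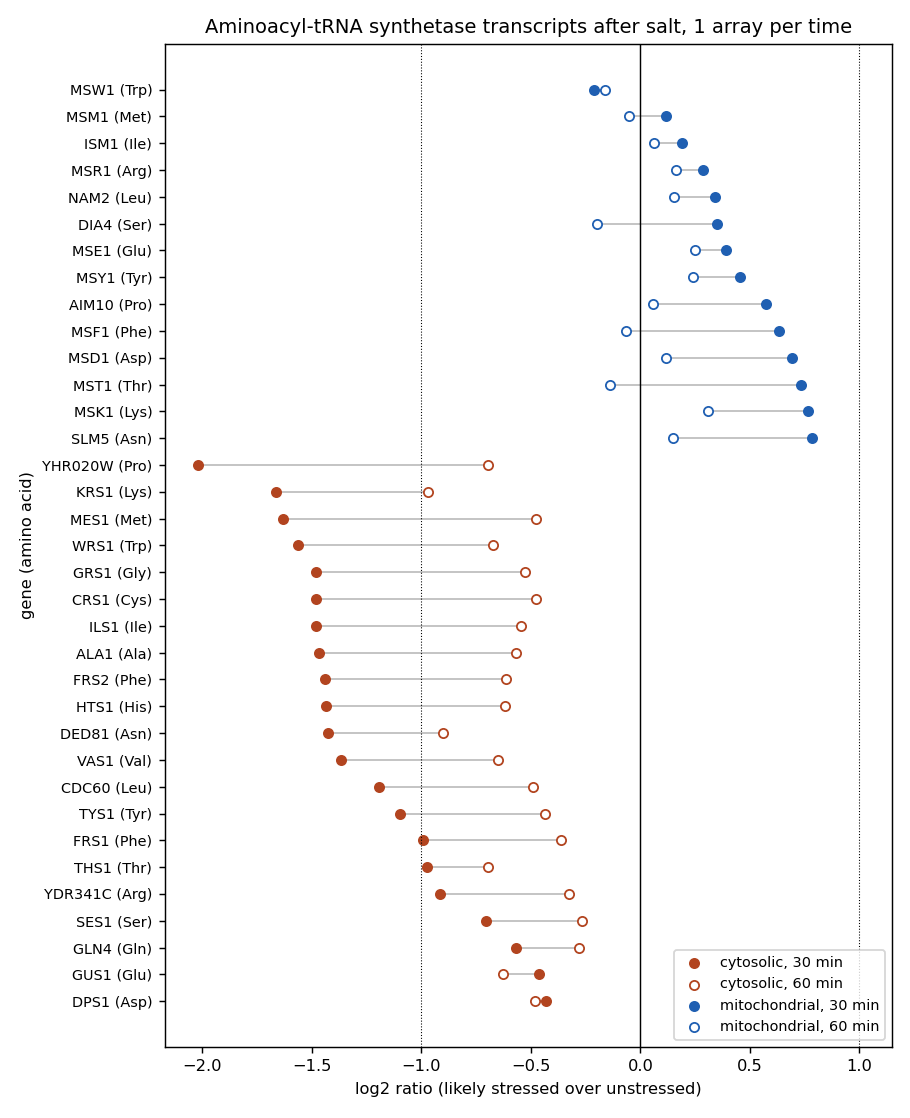
Log2 ratio (horizontal axis, dotted lines at 2-fold) of each of the 35 synthetase genes (vertical axis, with its amino acid) at 30 min (filled) and 60 min (open), cytosolic in red and mitochondrial in blue, 1 array per time and no error bars. All cytosolic values lie left of 0 at both times, and at 30 min all mitochondrial values but that of MSW1 lie right of it.

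Among the cytosolic enzymes the prolyl-tRNA synthetase gene YHR020W had the lowest ratio at 30 min, -2.02 (4.05-fold lower), and -0.70 at 60 min. It lies next to DED81 (YHR019C), the asparaginyl gene, on the opposite strand, and their upstream regions face each other. DED81 had -1.42 at 30 min and -0.90 at 60 min. Both neighbours were thus more than 2-fold lower on the 30 min array, and their order turned between the arrays. The lysyl gene KRS1 (YDR037W) had -1.66 (3.17-fold lower) at 30 min and, with -0.97, the lowest value of the set at 60 min. KRS1 and DED81 were the 2 members nearest to the 2-fold line at 60 min.

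The methionyl and glutamyl enzymes, MES1 (YGR264C) and GUS1 (YGL245W), bind the cofactor Arc1 together in 1 cytosolic complex, and their ratios were far apart. MES1 had -1.63 (3.10-fold lower) at 30 min and -0.47 at 60 min. GUS1 had -0.46 and -0.63, so it was the lower of the pair at 60 min. ARC1 (YGL105W), which is no synthetase, lay between them at both times, with -0.87 and -0.55. The subunits of the cytosolic phenylalanyl enzyme also had unequal ratios. FRS2 (YFL022C), the alpha subunit, had -1.44 and -0.61, and FRS1 (YLR060W), the beta subunit, had -0.99 and -0.36.

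A further 4 cytosolic members with a mitochondrial counterpart passed 2-fold at 30 min. The tryptophanyl gene WRS1 (YOL097C) had -1.56 at 30 min and -0.67 at 60 min. ILS1 (YBL076C), for isoleucine, had -1.48 and -0.54. The leucyl gene CDC60 (YPL160W) had -1.19 and -0.49, and TYS1 (YGR185C), for tyrosine, had -1.10 and -0.44. These 4 held the same order at both times, with WRS1 lowest and TYS1 nearest to 0.

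The cytosolic members within 2-fold at 30 min were FRS1 and 6 others. THS1 (YIL078W), the threonyl gene, had -0.97 at 30 min and -0.69 at 60 min, so that it was within 0.03 of the threshold at 30 min and the fourth lowest of the set at 60 min. YDR341C, the arginyl gene, had -0.91 and -0.33, and the seryl gene SES1 (YDR023W) had -0.71 and -0.27. Their 60 min values were among the 3 nearest to 0. The glutaminyl gene GLN4 (YOR168W) had -0.57 and -0.28. DPS1 (YLL018C), for aspartate, had -0.43 and -0.48. Together with GUS1 these made up the 3 cytosolic values nearest to 0 at 30 min, and they belong to the enzymes for glutamine, glutamate and aspartate. Asparagine did not share this, with DED81 at -1.42.

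For 6 amino acids the members hold a cytosolic or dual gene and no mitochondrial one. Of these 6 genes, 5 passed 2-fold downwards at 30 min, within a narrow range. GRS1 (YBR121C), for glycine, had -1.48, CRS1 (YNL247W), for cysteine, -1.48, ALA1 (YOR335C), for alanine, -1.47, HTS1 (YPR033C), for histidine, -1.44, and VAS1 (YGR094W), for valine, -1.37. At 60 min the same 5 genes lay between -0.65 (VAS1) and -0.48 (CRS1). The sixth, GLN4, was nearer to 0 at both times, as given above. ALA1, GRS1, HTS1 and VAS1, the genes named earlier as serving mitochondria too, thus had ratios like those of cytosolic enzymes. They lay below every mitochondrial member on both arrays. Each gene had a single value per array, so forms that start at different sites were not told apart.

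GRS1 has a paralog, GRS2 (YPR081C), which is not among the 35 members. GRS2 had 0.76 (1.69-fold higher) at 30 min and 0.12 at 60 min, against -1.48 and -0.53 for GRS1. Whether labelled cDNA of one copy bound probes of the other was not tested, but the copies differed in sign at both times.

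Among the mitochondrial enzymes the asparaginyl gene SLM5 (YCR024C) had the highest ratio at 30 min, 0.78 (1.72-fold higher), and 0.15 at 60 min. The lysyl gene MSK1 (YNL073W) had 0.77 at 30 min and, with 0.31 (1.24-fold higher), the highest mitochondrial value at 60 min. MST1 (YKL194C), for threonine, had 0.73 and -0.14. MSD1 (YPL104W), for aspartate, had 0.69 and 0.12. The phenylalanyl gene MSF1 (YPR047W), whose product works as 1 chain where the cytosolic enzyme has 2 kinds of subunit, had 0.63 and -0.07. These 5 genes were at least 1.5-fold higher at 30 min, and none of them was at 60 min. At 30 min they lay above 75.1% (MSF1) to 79.2% (SLM5) of all features.

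The other mitochondrial members had smaller ratios. AIM10 (YER087W), which encodes a protein similar to prolyl-tRNA synthetases, had 0.57 at 30 min and 0.06 at 60 min. The tyrosyl gene MSY1 (YPL097W) had 0.46 and 0.24, and MSE1 (YOL033W), for glutamate, had 0.39 and 0.25. DIA4 (YHR011W), a probable seryl-tRNA synthetase, had 0.35 and -0.20. It had the lowest mitochondrial value at 60 min.

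NAM2 (YLR382C), the leucyl enzyme, which also takes part in the splicing of mitochondrial introns, had 0.34 and 0.15. MSR1 (YHR091C), for arginine, had 0.29 and 0.16, and ISM1 (YPL040C), for isoleucine, had 0.19 and 0.06. The methionyl gene MSM1 (YGR171C) had 0.12 and -0.05. MSW1 (YDR268W), for tryptophan, was the one mitochondrial gene below 0 at 30 min, with -0.21, and had -0.16 at 60 min. None of these 5 reached 1.5-fold at either time.

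For 14 amino acids a cytosolic and a mitochondrial gene could be set side by side on the same array. The cytosolic ratio was below the mitochondrial one in all 14 pairs at both times, as the lack of overlap between the sets requires. At 30 min the median difference, cytosolic minus mitochondrial, was -1.61 on the log2 scale (3.05-fold), and in 13 of 14 pairs it was at least 2-fold. Differences ran from -2.59 for proline (YHR020W and AIM10) to -0.86 for glutamate (GUS1 and MSE1). Lysine followed proline, with -2.43, and asparagine came next, with -2.21. These are differences of ratios and not of transcript levels.

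At 60 min the median difference was -0.60 (1.52-fold), and 2 pairs passed 2-fold, lysine with -1.28 and asparagine with -1.05. Serine had the smallest difference, -0.07, as SES1 and DIA4 had -0.27 and -0.20. The glutamate pair had -0.88, against -0.86 at 30 min, and was the one pair whose difference was not smaller in size at 60 min. After rescaling the glutamate pair had -1.65. The aspartate pair was then not smaller either, with -1.13 against -1.12 at 30 min. On the rescaled 60 min array 9 of 14 pairs passed 2-fold and the median difference was -1.13.

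**Figure D2:**
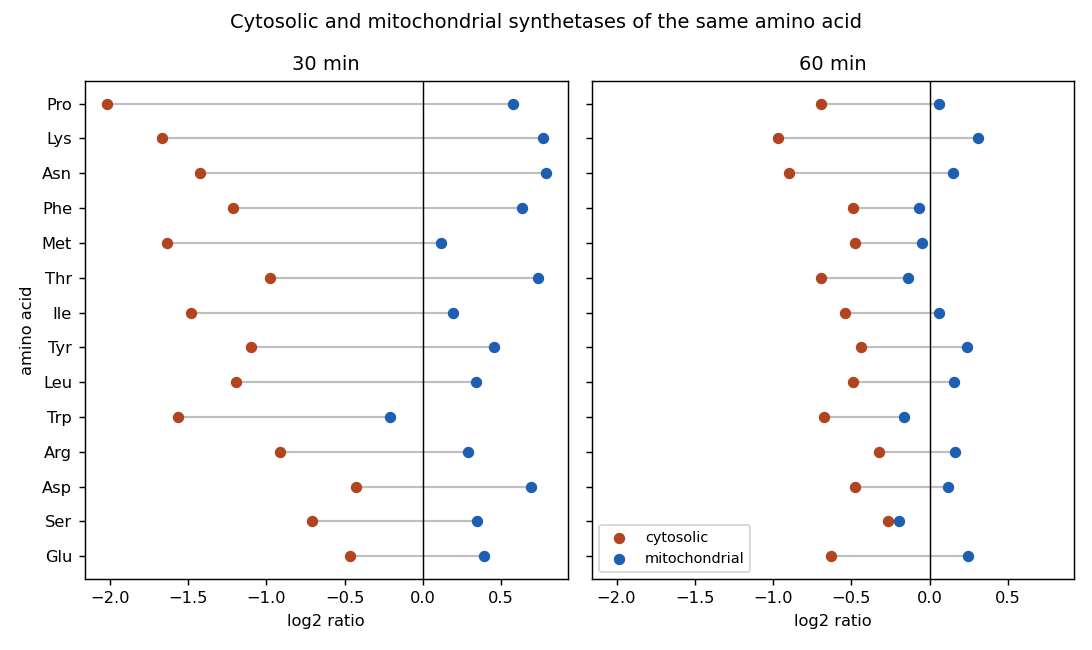
Log2 ratios (horizontal axis) of the cytosolic (red) and mitochondrial (blue) synthetase of each of 14 amino acids (vertical axis) at 30 min and 60 min, with the mean of FRS1 and FRS2 for cytosolic phenylalanine. The red point lies left of the blue one in every row of both panels, and in the serine row at 60 min they are 0.07 apart.

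The times were then set against each other by subtracting the value at 30 min from that at 60 min. Over the 21 cytosolic genes this difference had a median of 0.70, and it was positive in 19. YHR020W had the largest, 1.32, followed by MES1 with 1.16, and CRS1 was the one other member past 2-fold. These 3 of 21 (14.3%) stand beside 11.6% of all features, a similar share. On the rescaled array 0 of the 21 passed 2-fold, against 12.3% of all features. GUS1 and DPS1 were the 2 cytosolic genes that were lower at 60 min than at 30 min, by small amounts (differences of -0.16 and -0.05). Over the mitochondrial genes the median difference was -0.34, and it was positive for MSW1 alone, with 0.05. MST1 had the most negative one, -0.87.

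On the rescaled array the cytosolic median difference was 0.28, and 16 of 21 genes were positive. DED81, KRS1 and THS1 joined GUS1 and DPS1 below 0, with -0.27, -0.16 and -0.33. GUS1 then had -0.72 and DPS1 -0.47. The direction of the difference between times for these 3 genes therefore depends on the scale given to the arrays. Among the mitochondrial genes 2 of 14 were positive after rescaling, MSE1 with 0.07 and MSR1 with 0.02, while MSW1 had -0.09.

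The 14 cytosolic genes that passed 2-fold at 30 min kept a median of 40.5% of their log2 ratio at 60 min (interquartile range 35.9% to 43.1%). Over all 1186 features, synthetases included, at least 2-fold lower at 30 min the median was 31.6% (interquartile range 21.2% to 49.0%). On the rescaled array these medians were 76.2% for the 14 genes and 59.4% for the 1186 features. Both sets were picked by their low values at 30 min, by which the share divides, so a value closer to 0 at 60 min is partly built in and the share is given as a description. Among the 14 genes DED81 kept the most, 63.2%, and KRS1 kept 58.2%, while MES1 kept the least, 29.1%.

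**Figure D3:**
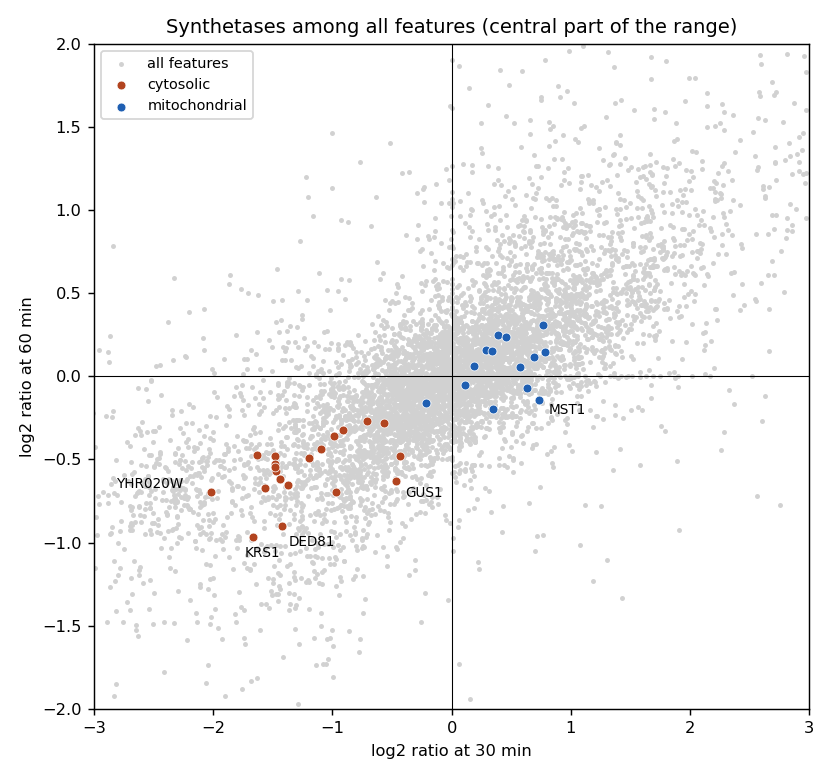
Log2 ratio at 60 min (vertical axis) against that at 30 min (horizontal axis) for all features (grey) and the cytosolic (red) and mitochondrial (blue) synthetases. The axes show the central part of the range, which holds all 35 members but leaves out more extreme features. KRS1 and DED81 lie lowest among the red points, and MST1 lies below 0 at 60 min.

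The members were also read by synthetase class, which their choice did not use. Among cytosolic genes 7 of 10 of class I and 7 of 11 of class II were at least 2-fold lower at 30 min, with medians of -1.28 and -1.44. At 60 min the medians were -0.48 and -0.61. The mitochondrial genes of class I had a median of 0.29 at 30 min (7 genes, -0.21 to 0.46), and those of class II had 0.69 (7 genes, 0.35 to 0.78). These ranges overlapped through DIA4 of class II alone, whose 0.35 lay below MSE1 and MSY1 of class I.

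At 60 min the order of the classes turned. Class I of the mitochondrial genes then had a median of 0.15 and class II of 0.06, with wide overlap. The 60 min minus 30 min difference ran from -0.22 to 0.05 in class I and from -0.87 to -0.46 in class II, without overlap. On the rescaled array the classes overlapped, since MSK1 of class II had -0.19 and MSM1 of class I had -0.21. No test was possible, and the genes of a class are not replicates.

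**Figure D4:**
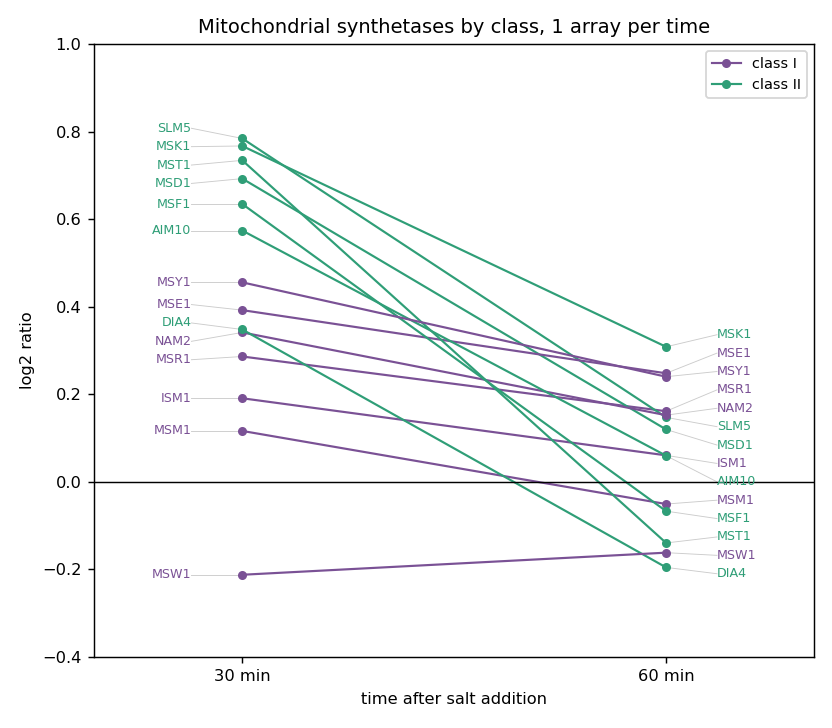
Log2 ratio (vertical axis) of the 14 mitochondrial synthetase genes at 30 min and 60 min after salt, each line 1 gene, class I in purple and class II in green, 1 array per time. At 30 min 6 of the 7 class II genes lie above all class I genes, and at 60 min the classes are mixed.

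Other genes of tRNA charging and use were described from 8 lists with 75 genes in all, chosen with earlier results of these data known. Their counts stand beside the 17.3% of all features that were at least 2-fold lower at 30 min and the 4.32% at 60 min. Mitochondria make glutaminyl-tRNA by amidating a tRNA first loaded with glutamate, through an enzyme encoded by HER2, PET112 and GTF1. FMT1 formylates the initiator methionyl-tRNA there. None of these 4 genes passed 2-fold at either time. All 4 were positive at 30 min, with 0.61 for HER2, 0.60 for PET112, 0.53 for GTF1 and 0.79 for FMT1, near the upper values of the mitochondrial synthetases. At 60 min they had 0.18, 0.08, 0.42 and 0.09 in the same order.

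The 6 mitochondrial translation factors were also positive at 30 min, with a median of 0.25. MEF2, a relative of the mitochondrial elongation factor gene MEF1, was the one at least 2-fold higher, with 1.26, and had 0.09 at 60 min. That is 1 of 6 (16.7%), near the 15.8% of all features at least 2-fold higher at 30 min. TUF1, the elongation factor that carries charged tRNA in mitochondria, had 0.10 and 0.30. RRF1, the ribosome recycling factor, had 0.57 and 0.17. IFM1 (initiation), MRF1 (termination) and MEF1 (elongation) had 0.21, 0.27 and 0.23 at 30 min, and 0.10, 0.25 and -0.05 at 60 min.

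In the cytosol, 7 of 8 elongation factor genes (87.5%) passed 2-fold downwards at 30 min, with a median of -1.37, close to the median of the cytosolic synthetases. YEF3, the fungal elongation factor that helps release spent tRNA, had -2.87 at 30 min and -1.27 at 60 min. EFB1, which reloads the tRNA carrier with GTP, had -2.20 and -0.80. EFT1, one of the gene copies of the translocation factor, had -1.26 and -0.84, and CAM1 had -0.21 and -0.16. The list median at 60 min was -0.90, with 3 of 8 at least 2-fold lower, where none of the 21 cytosolic synthetases was. On the rescaled 60 min array 7 of 8 (87.5%) were, against 15.9% of all features and 11 of 21 cytosolic synthetases. The list median was then -1.70, below that at 30 min. TEF1 and TEF2, and EFT1 and EFT2, are near-identical copies whose probes may share signal.

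tRNA modification enzymes had the lowest median of the 8 lists at 30 min, -1.80. They passed 2-fold downwards in 26 of 29 cases (89.7%, against 17.3% of all features), led by TRM11 with -4.59 and TRM82 with -3.59, both of which act in tRNA methylation. THG1, which adds a guanosine to histidine tRNA, had -0.16, and the deaminase gene TAD1 had -0.61. At 60 min 2 of the 29 were 2-fold lower (median -0.66). On the rescaled 60 min array 20 of the 29 (69.0%) were, against 15.9% of all features (median -1.24).

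For splicing and end processing of tRNA, 8 of 17 genes (47.1%, against 17.3% of all features) passed 2-fold downwards at 30 min (median -0.94) and none did at 60 min. On the rescaled 60 min array 4 of 17 (23.5%) did, against 15.9% of all features. Upwards, 1 of 17 (5.88%) passed 2-fold there, against 15.7%. The splicing endonuclease gene SEN34 had -2.70 and -0.42. POP8, a subunit of nuclear RNase P, had -2.58 and -0.84. RPM2, of the mitochondrial RNase P, had 0.62 and 0.54, and RPR2, another nuclear subunit, had 0.16 and -0.67. RPM2 was the highest of this list at both times.

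The tRNA transport and CCA list had no gene past 2-fold at either time. The exportin gene LOS1 had -0.997 at 30 min, just inside the threshold, and -0.12 at 60 min. MSN5, another exportin, had 0.69 and 0.22, and MTR10, an import receptor, had 0.62 and -0.02. CCA1, which adds the CCA end needed for charging, had 0.08 and -0.23, and the deacylase gene DTD1 had -0.75 and -0.36. CCA1 serves the cytosol and mitochondria from 1 gene, and its 30 min value was close to 0.

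Uncharged tRNA is sensed by the kinase Gcn2, with Gcn1 and Gcn20, and this raises translation of the transcription factor Gcn4. GCN4 itself had -1.02 at 30 min, at least 2-fold lower, and -0.03 at 60 min. GCN2 had 0.02 and 0.32, GCN1 -0.15 and -0.04, and GCN20 -0.10 and -0.25. Transcript ratios do not measure the translational control of GCN4.

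**Figure D5:**
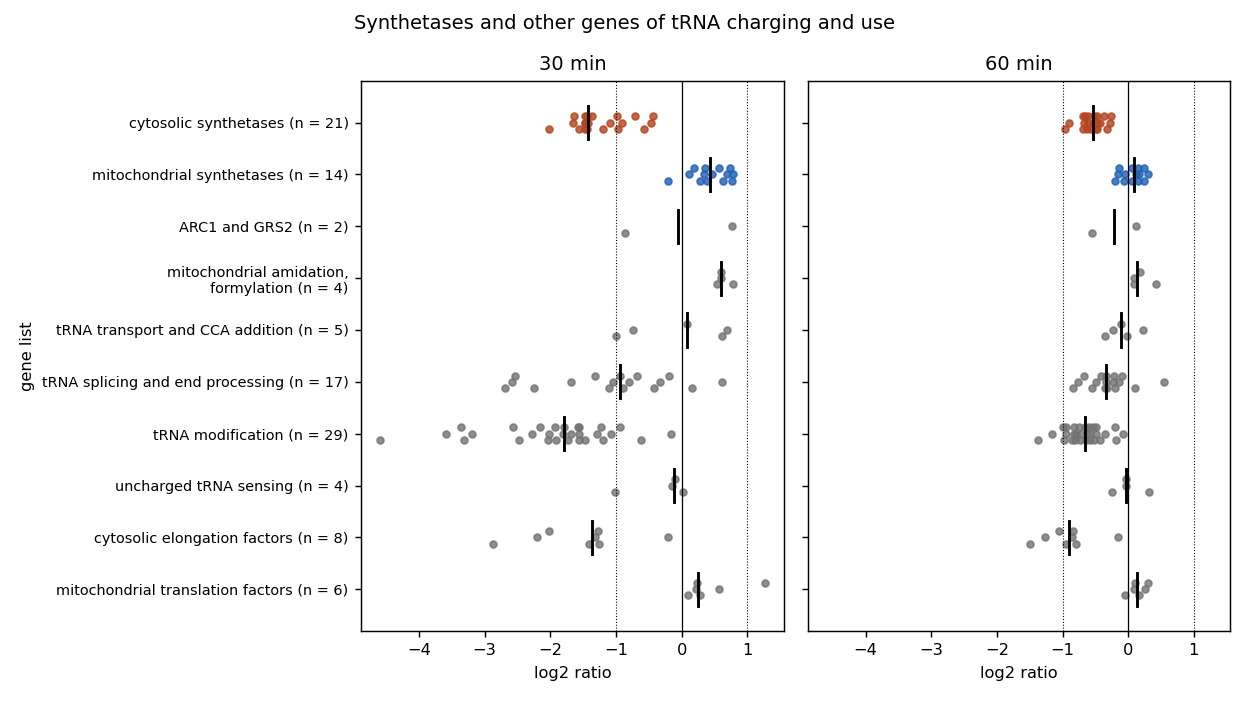
Log2 ratio (horizontal axis, dotted lines at 2-fold) of each gene of the cytosolic (red) and mitochondrial (blue) synthetases and of 8 lists of other genes (grey) at 30 min and 60 min; points are genes and the black bar is the list median. The mitochondrial lists lie right of 0 at 30 min, apart from the synthetase MSW1. The cytosolic synthetases, elongation factors and tRNA modification genes lie left of 0 at that time.

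The adjoining protein-coding genes, 2 for each member, were read as well. Of the 42 places beside cytosolic synthetases 10 (23.8%) held a gene at least 2-fold lower at 30 min and 7 (16.7%) a gene at least 2-fold higher, with a median of -0.01. Over all features the shares were 17.3% and 15.8%, so the lower share was somewhat above that of the array and the higher share near it. The difference was not tested. DED81 and YHR020W fill 2 of the 10. Of 16 places with a divergent upstream gene 5 (31.25%) were at least 2-fold lower, and DED81 and YHR020W fill 2 of these 5 as well. Of 5 places with an upstream gene on the same strand 0 were at least 2-fold lower and 3 (60%) at least 2-fold higher. Downstream, 2 of 10 convergent places (20%) and 3 of 11 on the same strand (27.3%) were at least 2-fold lower. A few neighbours are named here after their values were seen. RPA49, a subunit gene of RNA polymerase I, lies upstream of CRS1 and had -3.27, and RPS28A, a ribosomal protein gene, lies upstream of GLN4 and had -1.77. GLN4, with -0.57, had one of the cytosolic values nearest to 0, while CRS1 had -1.48.

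ILS1, with -1.48, lies between 2 genes that were more than 4-fold higher at 30 min, ATG8 (autophagy) with 2.61 and SSA3 (an Hsp70 chaperone) with 2.10. WRS1, with -1.56, has COQ3, of coenzyme Q synthesis, upstream with 1.51. On the mitochondrial side 7 of 28 places (25%) were at least 2-fold lower and 4 (14.3%) at least 2-fold higher (median -0.12). Over all features these shares were 17.3% and 15.8%, so again the lower share was above that of the array and the higher share near it. DIA4, with 0.35, follows the ribosomal protein gene RPL27A, with -2.57, and AIM10, with 0.57, follows ILV1, of isoleucine synthesis, with -1.87. These are examples of opposite sign. Cases of the same sign were RPS27B with -2.69 beside YHR020W, AIR1 with -2.32 beside THS1 and RPL22A with -2.40 beside FRS1. In all, the sign at 30 min was the same as that of the synthetase in 21 of 42 places beside cytosolic genes and in 12 of 28 beside mitochondrial ones. Many ribosomal protein genes, RPS28A, RPL27A, RPS27B and RPL22A among them, have near-identical copies, so their values may be shared.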

How the data were processed

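The deposited table holds 1 log2 ratio per feature and array. For the build, background correction, normalization and probe summary behind these log2 values nothing is stated in the labels, and neither the deposited table nor the labels give the log base or direction. Any shrinking of ratios at low signal, or signal shared by similar genes, would pass into the values unseen. The 35 members were matched by systematic name and all 35 have an entry in the reference gene table (assembly R64), as do 5984 of the 6868 features. The table gave symbols and adjoining genes, and no coordinates or sequences are printed. Promoter motifs were planned but not analysed here.

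With 1 array per time nothing was tested and depth is unknown, so the number of arrays limits the precision. Values were described by counts past 2-fold, medians, differences between paired genes and differences between times (Python 3.11.15, pandas 2.3.3, numpy 2.4.6). The counting was tested on simulated data. Alternatives were a 1.5-fold threshold, a natural log, rescaling the 60 min array to the SD of the 30 min array, centring on matched features, turning the sign, and leaving out the 6 cytosolic genes with no mitochondrial counterpart. The members and lists were chosen with earlier results of these data known. The rule for named genes took all 35 members, every gene of lists of up to 6, and the 2 highest and 2 lowest of larger lists at 30 min.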

Additional observations from a re-analysis of the deposited data

Results flagged for a closer look

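A gene was taken up here where its ratio had opposite signs on the 2 arrays. With 1 array per time the difference was not tested, and all 8 values at 60 min lie within 2-fold of 0. Among the mitochondrial synthetases 4 of 14 were above 0 at 30 min and below 0 at 60 min. The share of all features with such a change of sign was not counted, so the 4 cannot be set against it. Their values at 60 min, -0.20 to -0.05, lie inside the interquartile range over all features, -0.32 to 0.31. The 60 min minus 30 min difference was -0.87 for MST1, -0.70 for MSF1, -0.54 for DIA4 and -0.17 for MSM1. No cytosolic synthetase had opposite signs. Of the other genes named, the same pattern was found for RPR2 (difference -0.83), MTR10 (-0.63), CCA1 (-0.30) and MEF1 (-0.28).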

How the results depend on the processing

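No paired analysis was possible because there is 1 array per time and no replicate number. Rescaling multiplies the 60 min array by 1 positive factor, and centring moves all values of an array by the same amount. Neither could change which member of a pair was lower, and rescaling could not change the sign of a median. The lower cytosolic ratio in all 14 pairs was therefore not put to a test by them. Centring kept the sign of both medians at both times. On the rescaled 60 min array 11 cytosolic genes were at least 2-fold lower (0 as deposited) and 9 pairs passed 2-fold (2 as deposited). Over all features 15.9% were at least 2-fold lower after rescaling, against 4.32% as deposited. The rescaled medians were -1.02 for the cytosolic genes, 0.17 for the mitochondrial genes and -1.13 for the pairs, and the median differences between times were 0.28 and -0.20. The gap between the times therefore depends on the unequal spread of the arrays (SD 1.33 and 0.71), whose cause was not tested. At 1.5-fold, 9 cytosolic genes were lower at 60 min and 5 mitochondrial genes were higher at 30 min, and with a natural log these counts were 4 and 3, against 0 for each at 2-fold in base 2. The cytosolic count at 30 min was 18 in place of 14 under either. The shares of all features past these looser cuts were not counted, so these counts have no such share beside them. The upper quartile over all features at 30 min was 0.63, near the lowest of the 5 mitochondrial values, 0.63 for MSF1. Centring on matched features moved the medians by under 0.02, to -1.41, 0.44 and 0.0957 for cytosolic genes at 30 min and mitochondrial genes at 30 and 60 min. Without the 6 cytosolic genes that have no mitochondrial counterpart the cytosolic median at 30 min was -1.19. With the sign turned, the medians are 1.42 and 0.54 for cytosolic genes and -0.42 and -0.0898 for mitochondrial genes.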
